A study of Homo sapiens with 9 samples.

Results

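The places on chromatin where both tagged zinc finger proteins, bio-zfp148 and bio-zfp281, were called in hemin-treated K562 cells were compared library by library. A place was a run of peaks that overlapped by at least 1 bp over the 4 single-replicate peak lists, and it was kept when at least 1 library of each protein had a peak there. There were 13554 such places of 42969 in the 4 lists, and of 103537 places in the 6 single ChIP lists of the series, which include 2 of cells with the ligase BirA alone.

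K562 is a human erythroleukaemia line, and hemin drives it towards erythroid maturation. The bacterial biotin ligase BirA was stably made in every group. The bio-zfp148 cells further carried zfp148 (ZBP-89), and the bio-zfp281 cells zfp281 (ZBP-99), each with a biotin acceptor motif of 23 amino acids at the amino terminus. Clones were chosen in which the tagged protein was made at nearly the endogenous level, and how many clones were used for each protein is not given in the sources used here. The labels name no removal of the untagged endogenous proteins. Protein, clone and input library cannot be told apart in this design. All groups had hemin for 48 h (50 mM in the labels) and formaldehyde at 1% for 10 min before streptavidin chromatin immunoprecipitation with sequencing (ChIP-seq). The comparison used 2 libraries for each protein.

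Zfp148 and zfp281 are Krüppel-type zinc finger transcription factors with closely related DNA-binding domains, and both are known to bind G-rich and GC-rich DNA. Both have been described as activators or repressors depending on the promoter, and zfp148 has been studied in erythroid cells. Streptavidin binds biotin, so the readouts for a pair of related proteins do not depend on antibodies that might recognise both.

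The 4 libraries were shallow after the authors removed duplicates. Filtered tags numbered 810565 and 1497503 for bio-zfp148 replicates 1 and 2, against 1570283 and 906911 for bio-zfp281. Between 11.7% and 16.7% of the tags had been kept, with at most 1 tag per position, and 10.8% to 21.5% of the filtered tags lay in called peaks. The lists held 9895 peaks (bio-zfp281 replicate 2) to 28813 peaks (bio-zfp281 replicate 1). Nothing in the labels says that replicates came from separate cultures, so the p-values below measure only the spread between these libraries, which may be technical. No gene is given for a place, because the lists are on hg19 and no annotation of that build was used here.

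The first question was how far the calls themselves were shared. Of the 13554 common places, 4452 (32.8%) were called in all 4 libraries. A further 2806 (20.7%) were called in both bio-zfp148 libraries and 1 of bio-zfp281, and 1482 (10.9%) in 1 library of bio-zfp148 and both of bio-zfp281. The other 4814 (35.5%) rested on 1 library of each protein. Bio-zfp281 replicate 1 called 12875 of the common places (95.0%), bio-zfp148 replicate 2 called 11366 (83.9%), bio-zfp148 replicate 1 called 9446 (69.7%) and bio-zfp281 replicate 2 called 6613 (48.8%). The libraries of bio-zfp281 thus stood at both ends, and those of bio-zfp148 between them. Without bio-zfp281 replicate 1 the number of common places was 6613.

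**Figure D1:**
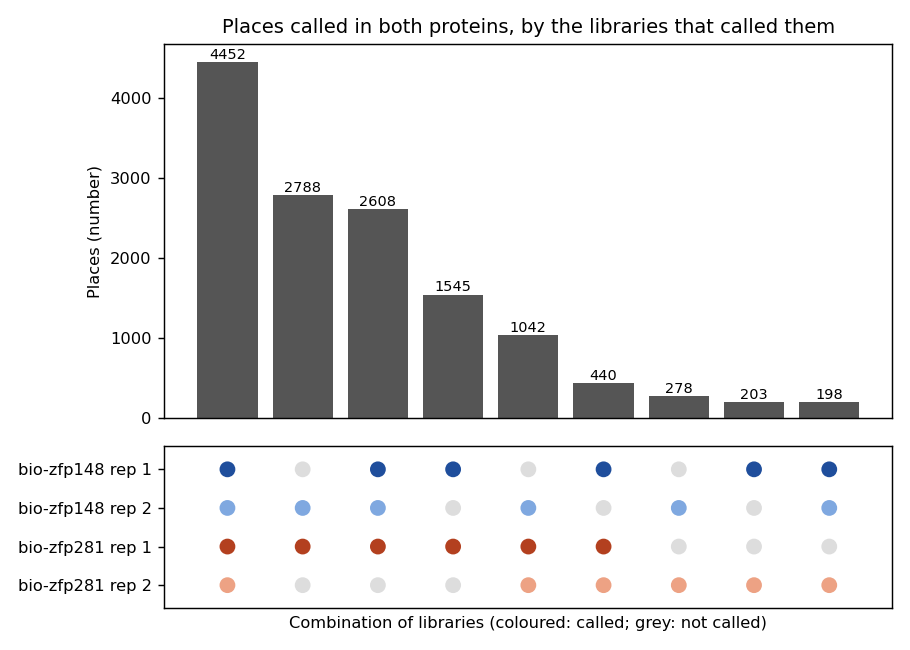
Number of places called in both proteins (bars, upper panel) for each of the 9 combinations of libraries (lower panel, coloured where the library called the place). The 4452 places called in all 4 libraries form the tallest bar, and the combinations that lack bio-zfp281 replicate 1 hold 278, 203 and 198 places.

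The most frequent of the other combinations joined the longer lists. The pair bio-zfp148 replicate 2 with bio-zfp281 replicate 1 alone accounted for 2788 places, and the same pair with bio-zfp148 replicate 1 for 2608. By contrast, the pair bio-zfp148 replicate 1 with bio-zfp281 replicate 2 alone accounted for 203. A peak list holds no value where no peak was called. The lowest level of a called common place was 4.93 and 3.34 normalised tags (tags for each 1000000 filtered tags of the library) in bio-zfp148 replicates 1 and 2, against 3.18 and 5.51 in bio-zfp281 replicates 1 and 2. These levels stood for 4, 5, 5 and 5 tags, so absence from a list at this depth does not show absence of the protein.

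Values on either side of the rule were as follows. At common places not called in all 4 libraries, the median level in the libraries that called them was 7.40 and 4.67 normalised tags in bio-zfp148 replicates 1 and 2, against 5.73 and 6.62 in bio-zfp281 replicates 1 and 2. At the 12113 places called for bio-zfp148 only, it was 4.93 and 4.01 normalised tags. At the 17302 places called for bio-zfp281 only, it was 3.82 and 5.51 normalised tags.

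Many common places also held a peak of the BirA control, in which no tagged protein was present. A peak of at least 1 of the 3 BirA lists overlapped 42.7% of all common places and 55.3% of those called in all 4 libraries, compared with 16.4% of places called for bio-zfp148 only and 25.7% of those called for bio-zfp281 only. The part of this control signal in the levels below was not tested, and each count of places that passed a test is given also for the 1990 places of the 4 libraries without a BirA peak.

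Levels were compared at the 4452 places called in all 4 libraries, since only these have a tag count in each. This leaves out the 12113 places called for bio-zfp148 only and the 17302 called for bio-zfp281 only. Values under the calling floor of any library are left out too. The differences below therefore hold only for places selected in this way, and the effect of the selection on their size was not tested. They held 29.1% and 25.8% of the peaks of bio-zfp148 replicates 1 and 2, against 16.6% and 47.3% of those of bio-zfp281 replicates 1 and 2. The median level was 14.8 and 12.0 normalised tags in bio-zfp148 replicates 1 and 2, against 14.0 and 11.0 in bio-zfp281 replicates 1 and 2. Levels of the 2 proteins overlapped, with replicate 1 above replicate 2 in each. The median log2 level was 3.74 ± 0.21 (SD, n = 2) in bio-zfp148 and 3.64 ± 0.24 (SD, n = 2) in bio-zfp281, and the difference of 0.10 was smaller than either SD (exact permutation test over libraries, two-sided, p = 0.667; the smallest p this design allows is 0.333).

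Place by place, the median of the log2 difference between the proteins (bio-zfp148 minus bio-zfp281, group means of log2 normalised tags) was 0.11. The middle 50% of places lay between -0.34 and 0.56, and 54.2% of places had a difference above 0. With trimmed mean scaling (TMM), which assumes that most places do not differ, the median moved to -0.01. A difference at one place is therefore read relative to a shift of about that size between scalings.

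At a single place, 1 of the 4452 passed the test for a difference in normalised tags (0.0225% called, edgeR quasi-likelihood test, adjusted p at or under 0.05), and it was higher in bio-zfp281. At an unadjusted p at or under 0.05, edgeR gave 452 places (10.2%), 267 (6%) higher in bio-zfp148 and 185 (4.16%) higher in bio-zfp281. Both values of 1 protein lay beyond both of the other at 1795 places (40.3%), of which 1037 (23.3%) had bio-zfp148 above and 758 (17%) had bio-zfp281 above. If all orderings of the 4 libraries were equally likely, a share of 0.333 of places would show this with no difference. DESeq2, scaled by its own size factors and not by header tags, called the same single place (0.0225%). Among the places without a BirA peak edgeR called 0, and 193 (9.70%) of these had an unadjusted p at or under 0.05 in the test over all places.

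In edgeR the number called depended on the scaling, while DESeq2 called 1 place with size factors of its own. The 52 places below thus rest on edgeR with TMM scaling, and not on setting header tags aside alone. After TMM scaling, edgeR called 52 places (1.17%), 32 (0.719%) higher in bio-zfp148 and 20 (0.449%) higher in bio-zfp281. All 52 had the same direction and an unadjusted edgeR p at or under 0.05 on header tags, and at 51 of them the groups did not overlap there. This is no separate support, since the 52 were chosen from the same counts under another scaling. Of the 52, 42 (80.8%) held a BirA peak, compared with 55.3% of all places tested, and their median level was 26.8 normalised tags, compared with 12.1 over all places. When the places with a BirA peak were left out, 8 were called after TMM scaling. Leaving out a library gave 1 (without bio-zfp148 replicate 1), 0 (without bio-zfp148 replicate 2), 7 (without bio-zfp281 replicate 1) and 25 (without bio-zfp281 replicate 2).

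**Figure D2:**
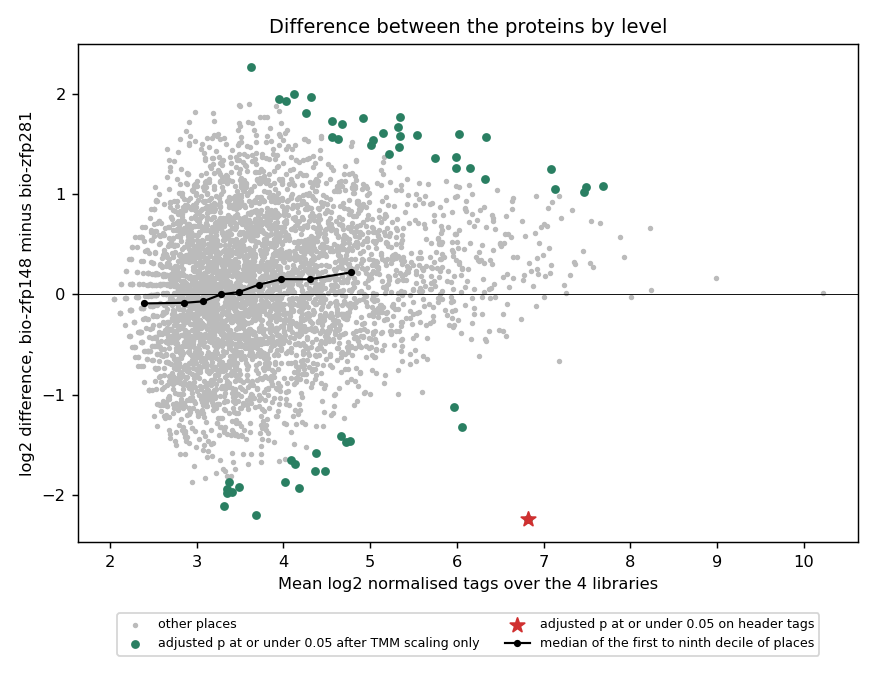
Difference between the proteins on the log2 scale (edgeR, vertical axis) against the mean log2 normalised tags of the 4 libraries (horizontal axis) at 4452 places, each 1 point. The star is the place called on header tags, the green points are other places called only after TMM scaling, and the black line joins medians of deciles of the places, which rise from -0.09 in the lowest.

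The data could resolve only large differences. The common coefficient of variation that edgeR estimated between replicates was 27.3%, a single summary over all places. The median half-width of the 95% interval was 1.11 on the log2 scale. At 94 places (2.11%) the interval lay wholly within a 2-fold difference either way, compared with 418 (9.39%) after TMM scaling. The 94 include a place where the estimate was almost 0 and the SE far below that of places of like depth. Its narrow interval does not show that the place was resolved, so the 94 may overstate the places resolved within 2-fold. At the other 4358 places at least, a missed threshold does not show that the proteins had equal levels. The point estimate exceeded 2-fold at 629 places, 355 higher in bio-zfp148 and 274 higher in bio-zfp281.

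The place that passed the test was chr1:26735120-26739789, with 53.0 and 51.4 normalised tags in bio-zfp148 replicates 1 and 2, against 278 and 216 in bio-zfp281 replicates 1 and 2. Both bio-zfp281 values were far above both bio-zfp148 values, and replicates lay close together. The means were 52.2 ± 1.2 and 247 ± 44 normalised tags (SD, n = 2 each), a log2 difference of -2.24 (SE 0.46, edgeR adjusted p = 0.0045). The same place had an adjusted p of 2.9e-14 in edgeR after TMM scaling and 3.25e-10 in DESeq2. With an overlap of 50% the place was split, and a part of it, chr1:26736371-26737673, was called (log2 difference -2.13, edgeR adjusted p = 0.0171), while another part was not (-2.53, edgeR adjusted p = 0.153). It was also among the longer ones, with 2 and 3 peaks for bio-zfp148 and 4 in each bio-zfp281 library. Their summed length was 1094 and 1952 bp in bio-zfp148, against 4133 and 3307 bp in bio-zfp281. With tags counted per kilobase of called peak, the log2 difference was -0.87 and no longer passed, nor did it with total tags as library size (-2.20). A BirA peak overlapped the place. Without bio-zfp281 replicate 1 the difference was -2.05 and edgeR's lowest adjusted p over all places was 0.412.

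The next 4 places higher in bio-zfp281, by smallest p, did not pass the test on header tags (edgeR adjusted p from 0.342 to 0.367) and passed only after TMM scaling. At chr9:133735824-133736940 the level was 8.64 and 4.67 normalised tags in bio-zfp148, against 40.8 and 16.5 in bio-zfp281. At chr22:22289950-22292001 it was 8.64 and 10.7 in bio-zfp148, against 50.9 and 23.2 in bio-zfp281. Both places had a BirA peak, and in both the bio-zfp281 replicates themselves differed by more than 2-fold. At chr7:50246026-50246751, with no BirA peak, the level was 4.93 and 4.67 normalised tags in bio-zfp148, against 22.9 and 18.7 in bio-zfp281. At chr7:97915432-97916097, also with no BirA peak, it was 16.0 and 9.35 in bio-zfp148, against 49.7 and 33.1 in bio-zfp281. The groups did not overlap at any of these 4 places, but the bio-zfp148 values of the chr9 and the first chr7 place stood for only 4 to 7 tags.

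In the other direction 0 places (0% called) passed the edgeR test on header tags, and the 5 with the smallest p all had an edgeR adjusted p of 0.342. At chr5:34697846-34698872 the level was 99.9 and 54.8 normalised tags in bio-zfp148, against 21.7 and 23.2 in bio-zfp281. At chr1:21112827-21114092, the only one of these 5 with no BirA peak, it was 35.8 and 20.7 in bio-zfp148, against 5.73 and 5.51 in bio-zfp281. Replicates of bio-zfp281 were close at both places, while those of bio-zfp148 differed by more than 1.5-fold. At chr17:43274519-43275309 the level was 137 and 97.5 normalised tags in bio-zfp148, against 45.9 and 29.8 in bio-zfp281. At chr3:197667717-197668829 it was 192 and 97.5 in bio-zfp148, against 50.9 and 45.2 in bio-zfp281, and at chr12:104300582-104301449 it was 62.9 and 23.4 in bio-zfp148, against 12.1 and 8.82 in bio-zfp281. Bio-zfp148 replicate 1 was the highest library at all 5 places. Mean levels in bio-zfp148 were 2.97 to 4.83 times those in bio-zfp281 by edgeR, and the adjusted p after TMM scaling was 0.0014 to 0.020.

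At 4 of the 5 strongest places the levels of the proteins overlapped. The highest, chr22:22897113-22902509, had 1500.2 and 941 normalised tags in bio-zfp148, against 1034 and 1390 in bio-zfp281. The higher level was in the shallower library of each protein. Before scaling, the tags were 1216 and 1409 in bio-zfp148, against 1623 and 1261 in bio-zfp281. The part of depth, and of keeping at most 1 tag per position, was not tested. The log2 difference at this place was 0.01 (SE 0.44, edgeR adjusted p = 0.998), and the 95% interval of a place at this error still spans differences near 2-fold. At chr1:121483961-121485584 the level was 565 and 518 in bio-zfp148, against 398 and 567 in bio-zfp281. There the 4 peak lengths lay between 1613 and 1624 bp and the 4 summits within 5 bp. At chrX:9309597-9311414 it was 455 and 311 in bio-zfp148, against 271 and 212 in bio-zfp281, the only one of the 5 where the groups did not overlap (edgeR adjusted p = 0.59). The other two were chr21:9825304-9827812, with 373 and 252 in bio-zfp148, against 318 and 283 in bio-zfp281, and chr2:133023942-133031753, with 308 and 207 in bio-zfp148, against 249 and 275 in bio-zfp281. All 5 held a BirA peak.

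**Figure D3:**
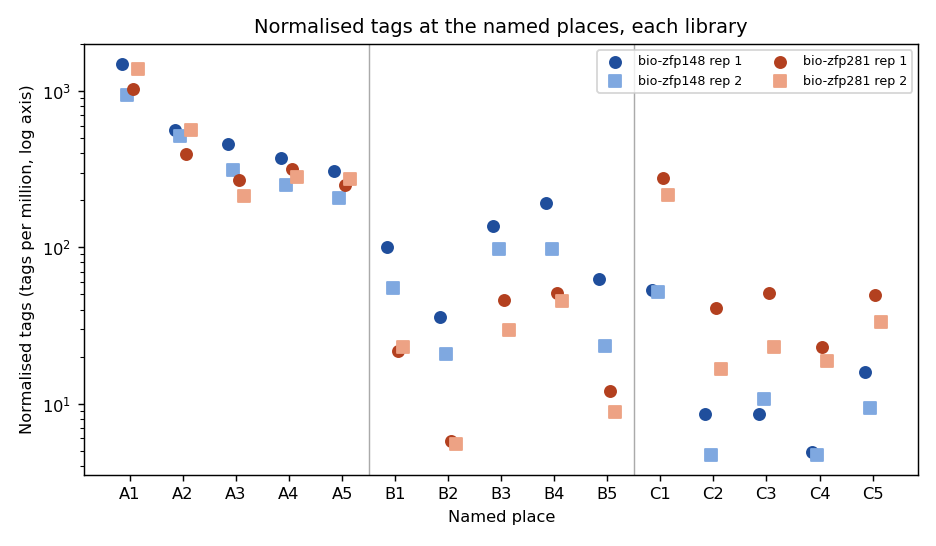
Normalised tags in each of the 4 libraries (log axis) at the 5 strongest places (A1 to A5), at the 5 places higher in bio-zfp148 with the smallest p (B1 to B5) and at the 5 higher in bio-zfp281 (C1 to C5), in the order of the text. Only C1 passed the edgeR test on header tags, with 53.0 and 51.4 against 278 and 216 normalised tags.

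The difference between the proteins changed with the level of a place. In the lowest decile of places by mean level the median log2 difference (edgeR) was -0.09, and in the highest decile it was 0.30. The number of places with bio-zfp148 above and no overlap rose from 42 of 446 to 167 of 445, while that with bio-zfp281 above fell from 112 to 30. The share of places with a BirA peak rose alongside, from 37.0% to 95.5%. The difference between the bio-zfp281 replicates (replicate 1 minus replicate 2) moved further over the same range, from -0.31 to 0.38, while that between the bio-zfp148 replicates was 0.45 and 0.42 at its ends. So a shift with level of this kind was also seen between libraries of 1 protein. In the highest decile the median level was 67.9 and 51.4 normalised tags in bio-zfp148, against 54.8 and 41.9 in bio-zfp281. In the lowest decile it was 6.17 and 4.67 in bio-zfp148, against 5.09 and 6.62 in bio-zfp281. Those values lie near the lowest called levels of the same libraries, 4.93 and 3.34 against 3.18 and 5.51. The part of the calling rule in the shift with level was not tested.

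The difference between proteins was then set against that between replicates. The median absolute log2 ratio of normalised tags was 0.54 for both replicate pairs, 0.53 for bio-zfp148 replicate 2 with each bio-zfp281 library, 0.63 for bio-zfp148 replicate 1 with bio-zfp281 replicate 1, and 0.65 for it with bio-zfp281 replicate 2. The mean over the 4 pairs of different proteins was 0.58 and that over the 2 replicate pairs 0.54, a difference of 0.04. The 2 pairs of different proteins without bio-zfp148 replicate 1 thus differed no more than replicates did. Without that library the difference between the 2 means was -0.005. When each pair was first centred on its own median, the means were 0.56 between proteins and 0.48 between replicates, and each of the 4 pairs of different proteins (0.52 to 0.63) lay above both replicate pairs (0.47 and 0.49).

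Across the 4452 places, Pearson's r of log2 normalised tags was 0.81 between the bio-zfp148 replicates and 0.76 between those of bio-zfp281, compared with 0.66 to 0.75 for pairs of different proteins. Spearman's rho did not keep that order, at 0.74 and 0.68 between replicates and 0.58 to 0.70 between proteins, with bio-zfp148 replicate 2 and bio-zfp281 replicate 1 (0.70) above the bio-zfp281 replicates. All pairs share places that were selected for being called in each library, and pairs with a library in common share its depth, so r is given only as a description. At the 1990 places without a BirA peak r was 0.64 and 0.57 between replicates and 0.42 to 0.58 between proteins. There 1 pair of different proteins, bio-zfp148 replicate 2 with bio-zfp281 replicate 1, at 0.58, was above the bio-zfp281 replicates, at 0.57.

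**Figure D4:**
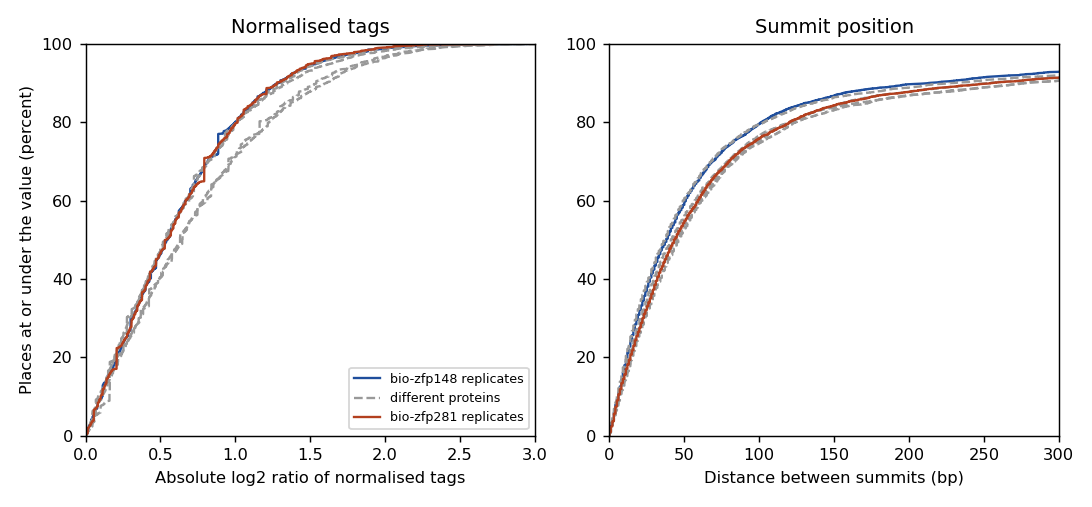
Share of the 4452 places (vertical axis, percent) with an absolute log2 ratio of normalised tags (left) or a distance between summits in bp (right) at or under the value on the horizontal axis, for each of the 6 library pairs. Solid lines are replicate pairs and dashed grey lines pairs of different proteins. Medians run from 0.53 to 0.65 on the left and from 37 to 47 bp on the right, and the replicate lines lie among the dashed ones on the right.

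Peak length did not separate the proteins. The median summed length of called peaks at a place was 589 and 693 bp in bio-zfp148 replicates 1 and 2, against 777 and 570 bp in bio-zfp281 replicates 1 and 2. Both bio-zfp148 values lay between those of bio-zfp281. The longest peaks were in the library with the most filtered tags, and the shallower library of each protein had the shorter peaks. The median log2 difference was -0.04, and the difference of the library medians was -0.06 (exact permutation test, two-sided, p = 1; the smallest p is 0.333).

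**Figure D5:**
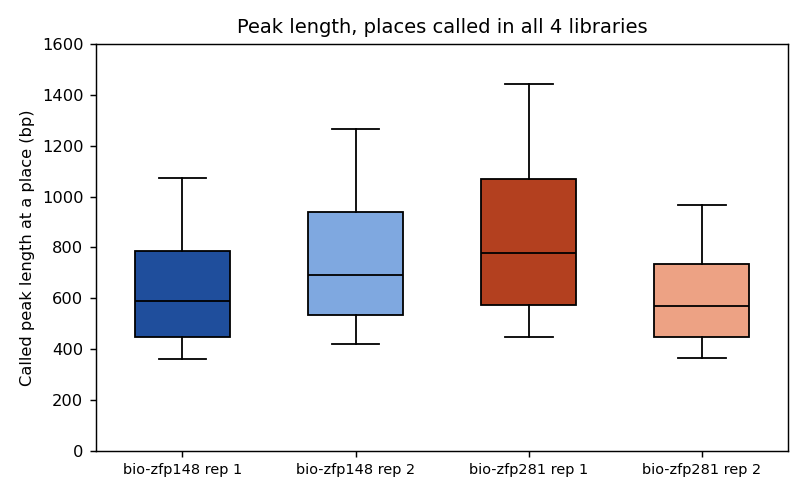
Called peak length in bp at the 4452 places in each library. Boxes span the middle 50% of places with the median as a line, and whiskers reach the 10th and 90th percentiles. The medians are 589, 693, 777 and 570 bp from left to right, with the longest and the shortest both in bio-zfp281.

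No place passed the test for length (0% called, limma adjusted p at or under 0.05 on log2 length), and the lowest adjusted p was 0.9996. At an unadjusted p at or under 0.05, limma gave 120 places (2.7%), 43 (0.966%) longer in bio-zfp148 and 77 (1.73%) longer in bio-zfp281. No other tool was run on length. Among the places without a BirA peak limma also called 0, and 54 (2.71%) of these had an unadjusted p at or under 0.05 in the test over all places. The groups did not overlap in length at 1305 places (29.3%), below the share of 0.333 for equally likely orderings of the 4 libraries. A nominal 95% interval from the limma SE, by the normal approximation, lay within 2-fold at 1532 places (34.4%). It is narrower than limma's own test implies, so this count is an upper limit.

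The 5 places with the smallest p for length are given as values, since none passed. At chr17:7744543-7746697 the peaks covered 512 and 555 bp in bio-zfp148, against 1991 and 1661 bp in bio-zfp281, and the level was 4.93 and 5.34 normalised tags against 20.4 and 19.8. At chr22:22168781-22172131 they covered 742 and 474 bp in bio-zfp148, against 2178 and 1899 bp in bio-zfp281. Both places had a BirA peak, and in both the longer protein also had more tags. At chr16:15686446-15687496 the peaks covered 781 and 941 bp in bio-zfp148, against 317 and 282 bp in bio-zfp281, and at chr20:5662805-5663826 they covered 1022 and 988 bp against 332 and 402 bp. At chr13:91801821-91802777 they covered 222 and 332 bp in bio-zfp148, against 749 and 727 bp in bio-zfp281. These last places had no BirA peak and at most 36 tags in any library. Across places, length and tags moved together, with a Spearman correlation between 0.58 and 0.61 in the 4 libraries.

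Summits mostly coincided. The 2 group means of the summit position lay within 50 bp of each other at 2833 places (63.6%), and the median distance between summits was 37 to 47 bp for the 4 pairs of different proteins, compared with 38 bp between the bio-zfp148 replicates and 43 bp between those of bio-zfp281. The mean over pairs was 42.5 bp between proteins and 40.5 bp between replicates, a difference of 2 bp. In the highest decile of places by level the medians were 22 bp between proteins and 23 bp between replicates, and in the lowest decile 58 and 55 bp. The distance thus fell with level in both kinds of pair alike.

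The summit position passed the test at 25 places (0.562% called, limma adjusted p at or under 0.05), 11 (0.247%) with the bio-zfp148 summit at the higher coordinate and 14 (0.314%) with that of bio-zfp281. At an unadjusted p at or under 0.05 limma gave 228 (5.12%), 114 (2.56%) in each direction. At the 25 places the shift was 465.5 to 1618 bp with a median of 645.5 bp, while replicates of 1 protein lay at most 156 bp apart. In 18 of the 25, at least 1 library had 2 peaks at the place, and the median length of the 25 places was 1561 bp, compared with 964 bp over all. When the places with a BirA peak were left out, limma called 14. Of the 25, 12 held a BirA peak, and 1 also had an unadjusted edgeR p at or under 0.05 for tags. When only places with 1 peak in each library were tested, 0 were called by limma (lowest adjusted p 0.0719). Leaving out any 1 of the 4 libraries, which leaves 1 protein with a single library, also gave 0, while the shifts at the 5 places named next changed by less than 50 bp.

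The 5 places with the smallest p for the summit are given with their positions. At chr19:50834253-50837066 the summits were at 50834758 and 50834781 in bio-zfp148 and at 50836384 and 50836391 in bio-zfp281, a shift of -1618 bp (SE 22.5, limma adjusted p = 0.0115). Within each protein the replicates were 23 bp apart or less. At chr19:50866216-50868111 the summits were at 50866531 and 50866556 in bio-zfp148 and at 50867891 and 50867893 in bio-zfp281. Both places showed the bio-zfp281 summit at the higher coordinate, but at the second the shift turned from -1348.5 to 16.5 bp and was no longer called with peaks of at least 100 on the p scale, with an FDR of at most 5% or with an overlap of 50%. In the other direction, chr7:73097635-73099392 had summits at 73098843 and 73098847 in bio-zfp148 and at 73097863 and 73097825 in bio-zfp281. At chr22:20066515-20069282 the bio-zfp148 summit was 1357.5 bp higher, and at chr2:25537169-25538291 it was 645.5 bp higher. At these 5 places the level was 4.01 to 37.0 normalised tags from 6 to 55 tags per library. None of the 5 passed the test for level (lowest edgeR adjusted p 0.622).

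Neighbouring places were also compared in bins of 1 Mb. Bins with at least 10 places called in all 4 libraries numbered 75, and their median log2 differences ran from -0.67 to 0.73, with 2 below -0.5 and 2 above 0.5. All differences in a bin had the same sign in 1 of the 75. That bin, also the highest, was chromosome 12 from 50 to 51 Mb, where 11 of 11 places were above 0 and the median levels were 14.8 and 12.0 normalised tags in bio-zfp148, against 7.01 and 7.72 in bio-zfp281. The groups' medians did not overlap there. The lowest was chromosome 6 from 33 to 34 Mb, where 14 of 15 places were below 0 and the medians were 12.3 and 14.0 in bio-zfp148, against 21.0 and 12.1 in bio-zfp281, so bio-zfp281 replicate 2 lay with bio-zfp148. On chromosome 6 from 26 to 27 Mb, 9 of 10 places were below 0 (median -0.62), and there too the 2 proteins overlapped, with medians of 11.7 and 7.68 in bio-zfp148, against 22.3 and 9.92 in bio-zfp281. These bins were chosen for their values and are given with no test. Copy number in the clones was not measured here.

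Over whole chromosomes the medians lay close to 0. Among the chromosomes with more than 100 places called in all 4 libraries, they ran from -0.11 on chromosome 7 (262 places) to 0.26 on chromosome 8 (135 places). The differences between the bio-zfp148 and between the bio-zfp281 replicates were 0.47 and 0.36 on chromosome 7 and 0.36 and 0.35 on chromosome 8. Over all 4452 places they were 0.36 and 0.31. They thus include an offset between libraries that is not particular to a chromosome, and do not measure the spread of a chromosome median.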

How the data were processed

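The submitters' processing notes name Bowtie 1.0.0, hg19 and MACS 1.4. Per the file headers, the authors called peaks with MACS 1.4.0rc2 with a p cutoff of 1e-05, each library against its group's input. The authors deposited for each peak a tag count without normalisation, a score of 10 times −log10 p, and a false discovery rate in percent. The score and rate were used only as filters. Tags and lengths of several peaks of 1 library at a place were added, and the summit was that of the peak with most tags. Tags were tested with edgeR 4.0.16 (library size: filtered tags in the header) or DESeq2 1.42.0 (its own size factors). Log2 length and summit position were tested with limma 3.58.1. All tests had Benjamini-Hochberg adjustment over the 4452 places. The fits were also run on simulated data, which lacked the floor that peak calling sets on tag counts. No result here rests on that run. R 4.3.3 and Python 3.11.15 were used. Pooled lists of the tagged proteins were not used. Named places are the 5 strongest, the 5 with the smallest p for tags in each direction (fewer than 5 passed in either), and the 5 with the smallest p for length and for summit, all from places called in all 4 libraries. The members, lists and rules were chosen with earlier results of these data known. Gene lists were not used, for want of an hg19 annotation. Alternatives changed the scaling, the filters on peaks, the overlap rule, the block and the libraries, or left out chromosomes 9 and 22.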

Additional observations from a re-analysis of the deposited data

How the results depend on the processing

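The count of places differing in normalised tags was 1, 52 after TMM scaling, 0 with total tags as library size, 0 with 1 peak per library, 0 without BirA peaks, and 0 to 2 with each library left out. With tags per kilobase 1 place was called, chr4:31085856-31086599, higher in bio-zfp148 and named after its value was seen. DESeq2, with its own size factors, called 1. Without chromosomes 9 and 22 edgeR called 1 on header tags and 44 after TMM scaling, the latter an alternative chosen after seeing the data. The 52 became 8 without BirA peaks and 1, 0, 7 and 25 with bio-zfp148 replicates 1 and 2 and bio-zfp281 replicates 1 and 2 left out, alternatives chosen after seeing the data. The number of summit shifts, 25, became 14 without BirA peaks, 0 with 1 peak per library and 0 with each library left out. The shift at chr19:50866216-50868111 turned to 16.5 bp with peaks of at least 100 on the p scale, with an FDR of at most 5% or an overlap of 50%. Length gave 0 calls under all 12 alternatives. Deviations of replicates by number were not positively correlated between the proteins (-0.18 for tags, -0.05 for length, -0.07 for summits). This cannot show whether replicates of the same number were handled together. With the replicate block 1 place was called for tags, 1 after TMM scaling, 0 for length and 0 for summits, and with crossed numbers 0 for each of tags, length and summits. The spread between proteins over that between replicates (0.04), not centred, was -0.0152 with total tags, 0.00418 with tags per kilobase and 0.0529 without BirA peaks. It was -0.00473 to 0.102 with each library left out, and for summits (2 bp) -2 to 8 bp. Not centred, it includes the offsets between libraries. With each pair centred on its own median it was 0.0828, and 0.0633 without BirA peaks. A change of library size cannot alter the centred value. Common places fell from 13554 to 7764 without BirA peaks, and were 6613 to 12875 with each library left out. The median differences moved by less than the replicate SD under every alternative, but changed sign with single libraries left out (-0.05 to 0.27 for tags, -0.26 to 0.15 for length). The cause of these changes was not tested. The median tag count at a place was 10 to 22 over the 4 libraries, and the effect of depth on the calls was not tested.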
